A study of Mus musculus with 15 samples.

Results

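The 44 genes described here are those that copy the genome and divide the cell, 20 of DNA replication and 24 of mitosis, and they were followed in 15 mouse T cell leukemia lines. The members have textbook functions, and they were chosen with earlier results of these data known. They are *Mcm2* to *Mcm7*, *Cdc45*, *Gins1*, *Gins2*, *Pcna*, *Rrm1*, *Rrm2*, *Tyms*, *Cdc6*, *Cdt1*, *Ccne1*, *Ccne2*, *E2f1*, *E2f2* and *E2f8* for replication, and *Mki67*, *Top2a*, the cyclins *Ccna2*, *Ccnb1* and *Ccnb2*, *Cdk1*, *Cdc20*, *Plk1*, *Aurka*, *Aurkb*, *Bub1*, *Bub1b*, *Bub3*, *Ttk*, *Cenpe*, *Cenpf*, *Birc5*, *Kif11*, *Kif20a*, *Nusap1*, *Tpx2*, *Ube2c*, *Foxm1* and *Mybl2* for mitosis. All 44 were among the 12545 genes listed, with a mean over lines of 41.7 (*Ccne1*) to 1222 (*Top2a*) CPM, reads scaled to the same total in each library, so no member was lost to a filter on low values.

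Of the lines, 7 came from *E2a-/-* mice and 8 from mice labelled E2a-/-LefF/F LckCre+, called DKO. Every line therefore lacks the transcription factor gene *E2a*, and the DKO lines also carried floxed *Lef1* alleles with a Cre transgene driven by the *Lck* promoter, which the study's description places from the DN2 thymocyte stage onward. All mice were FVB/NJ. The lines grew out of thymus cells of moribund mice kept for more than 2 weeks in OPTI-MEM with serum, received no treatment, and gave 1 RNA-seq library each, so a line is the replicate. Whether a line is 1 clone is not given in the sources used here. Libraries held 4847970 reads (DKO79.9) to 21681586 reads on the listed genes, with a median of 18908120 in DKO and 18584597 in *E2a-/-* lines.

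*Lef1* was at 103 to 210 CPM (median 128) in the DKO lines and at 59.0 to 1558 CPM (median 933) in the *E2a-/-* lines. The groups overlapped through the line labelled SKO132 alone, which was *E2a-/-* by its label and had the lowest *Lef1* of all 15; the other 6 *E2a-/-* lines were at 668 CPM or more. *Lef1* had a log2 fold change of -2.33 (exact permutation p = 0.00389, two-sided; limma adjusted p = 0.098), so it did not pass the adjusted p of 0.01 used for the members. The floxed part is the DNA binding domain by the study's description, so reads from the rest of the gene may remain. All 8 T lineage markers were listed, with a summed level that ran from 5751 to 8291 CPM over the DKO lines; the *E2a-/-* lines held 4282 to 7063 CPM, and the lowest was SKO132. None of 4 B cell and none of 4 erythroid markers was listed, 3 of 5 myeloid markers summed to 8.99 to 18.9 CPM, and 3 of 6 stromal, epithelial and endothelial markers summed to 65.5 to 544 CPM, led by *Pdgfrb* and *Pecam1*.

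Replication origins are licensed when CDC6 and CDT1 load the MCM helicase, a ring of MCM2 to MCM7, onto DNA. The helicase fires when CDC45 and the GINS complex join it under cyclin E and CDK control, and E2F transcription factors turn on many of these genes at the entry to S phase. Mitotic genes peak later, in G2 and mitosis, under B-MYB (*Mybl2*) and FOXM1. Repressor complexes that contain RB family proteins hold both waves down in resting cells, and the CDK inhibitor p21, the product of *Cdkn1a*, favours that state. T-ALL cells in culture cycle rapidly and express both sets.

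The start regions of these genes carry different letters in the 2 sets. RefSeq promoter windows (GRCm38.p6, 250 bases before to 50 after the start) were matched by symbol for 35 members, 16 of replication and 19 of mitosis; *Mcm4*, *Gins1*, *Gins2*, *Ccne2*, *Ccna2*, *Aurkb*, *Kif20a*, *Tpx2* and *Foxm1* had no entry. E2F motifs, taken as TTTCGCGC, TTTGGCGC, TTTCCCGC or TTTGCCGC on either strand, were present in 7 of 16 replication members (43.8%), in 1 of 19 mitosis members (5.26%) and in 4.85% of 9279 listed genes with a window. The 7 were *Mcm3*, *Mcm5*, *Mcm6*, *Mcm7*, *Cdc6*, *Cdt1* and *E2f2*, and the mitotic one was *Cdk1*. The CHR (cell cycle genes homology region, TTTGAA, either strand) had the opposite layout, with 13 of 19 mitosis members (68.4%), 4 of 16 replication members (25%) and 14.1% of listed genes. CCAAT boxes (either strand) were in 68.8% of replication members, 84.2% of mitosis members and 43.2% of listed genes. Counted over all 32851 windows, 2.27% held an E2F motif, 17.9% a CHR and 37.4% a CCAAT box. A match gives the letters only and was not tested as a bound site.

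The windows of 4 members are printed 5′ to 3′ on the strand of the gene, with the matches in capitals. *Mcm6* has the most E2F letters of the replication set, *E2f8* and *Ttk* have the largest fold changes between the genotypes, and *Top2a* is the most abundant mitotic member.
Mcm6: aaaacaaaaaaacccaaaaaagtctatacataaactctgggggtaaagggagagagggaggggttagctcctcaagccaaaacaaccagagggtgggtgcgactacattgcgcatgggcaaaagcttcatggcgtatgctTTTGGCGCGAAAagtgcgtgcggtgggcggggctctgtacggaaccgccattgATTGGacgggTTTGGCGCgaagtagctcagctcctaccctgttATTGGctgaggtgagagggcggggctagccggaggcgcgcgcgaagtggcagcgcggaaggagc
E2f8: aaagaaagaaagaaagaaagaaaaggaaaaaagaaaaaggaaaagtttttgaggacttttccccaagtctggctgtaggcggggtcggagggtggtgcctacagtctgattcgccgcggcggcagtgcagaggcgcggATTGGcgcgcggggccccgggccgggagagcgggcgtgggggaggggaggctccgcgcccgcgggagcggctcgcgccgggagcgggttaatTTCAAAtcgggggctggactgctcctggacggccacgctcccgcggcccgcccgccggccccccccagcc
Ttk: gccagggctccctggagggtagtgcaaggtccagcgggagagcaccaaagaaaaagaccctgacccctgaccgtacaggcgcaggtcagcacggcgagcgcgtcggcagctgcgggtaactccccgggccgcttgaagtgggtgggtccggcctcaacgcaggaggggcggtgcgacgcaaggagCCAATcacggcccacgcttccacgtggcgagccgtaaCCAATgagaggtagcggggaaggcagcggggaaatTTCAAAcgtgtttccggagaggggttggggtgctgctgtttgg
Top2a: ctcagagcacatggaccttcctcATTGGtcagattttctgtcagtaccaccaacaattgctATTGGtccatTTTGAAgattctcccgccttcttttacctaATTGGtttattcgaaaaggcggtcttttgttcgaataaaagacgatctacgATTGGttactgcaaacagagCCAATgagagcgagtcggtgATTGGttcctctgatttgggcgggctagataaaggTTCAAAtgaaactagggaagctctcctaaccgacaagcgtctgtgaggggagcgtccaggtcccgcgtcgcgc
*Mcm6* (chr1:128359656-128359955, minus strand) holds 3 E2F matches, of which the pair in TTTGGCGCGAAA overlaps on opposite strands with first letters at -110 and -106 from the start and the third lies at -47, and it has no CHR. *E2f8* (chr7:48881547-48881846, minus strand) is a replication member without an E2F match and with a CHR on the opposite strand, TTCAAA, at -20. *Ttk* (chr9:83834439-83834738, plus strand) has its CHR, TTCAAA, at 8, after CCAAT letters at -65 and -28. *Top2a* (chr11:99024140-99024439, minus strand) has a CHR at -179 and one at -23 among 6 CCAAT matches.

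Taken per length of merged exons, *Pcna*, *Rrm2* and *Mcm6* led the members. Levels were divided by the length of each gene's merged exons (GENCODE M21), since the length column of the deposited table exceeds this for 70.4% of genes. *Pcna*, the sliding clamp of the replication fork, was highest at 294.9 CPM per kb, followed by *Rrm2*, the regulated subunit of ribonucleotide reductase, at 191.9 and the helicase subunit *Mcm6* at 190.07 CPM per kb. The lowest were *Ttk*, the spindle checkpoint kinase MPS1, at 10.2, the kinetochore protein gene *Cenpf* at 12.5 and *Ccne1*, cyclin E1, at 15.7 CPM per kb. With the table's own length the 3 highest were *Mcm3*, *Mcm2* and *Rrm1* and the 3 lowest *Ccne2*, *E2f8* and *Cenpf*, so the order depends on the length used.

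The first comparison asked whether loss of *Lef1* goes with a different level of the replication and division genes. None of the 44 members passed an adjusted p of 0.01 (limma on log2(CPM + 1), Benjamini-Hochberg over all 12545 genes), where 0.0478% of all genes did. At an unadjusted p of 0.05 there were 3 members, *E2f8*, *Ttk* and *Bub1*, all lower in DKO, beside 10.2% of all genes in either direction and 5.83% lower in DKO. No member separated the groups completely, as 0.175% of all genes did. On reads recovered from the CPM values, edgeR's quasi-likelihood test called 0 members (0.00797% of all genes), and 3 had an unadjusted p below 0.05 (10.8% of all genes). Its likelihood ratio test called 0 (1.26% of all genes) and gave 1 at that unadjusted p (8.95%), and DESeq2 called 0 (1.41% of all genes) and gave 3 (13%). At an adjusted p of 0.05 limma still called none of the members, and 0.151% of all genes. The members are abundant and the intervals narrow: the 95% interval of the log2 fold change lay within 1 of 0 for 43 of 44 members, *E2f8* being the exception, as it did for 74.0% of all genes and for 89.9% of the 4773 genes with a mean of 50 CPM or more, and the median half-width was 0.25 for members and 0.40 for all genes.

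**Figure D1:**
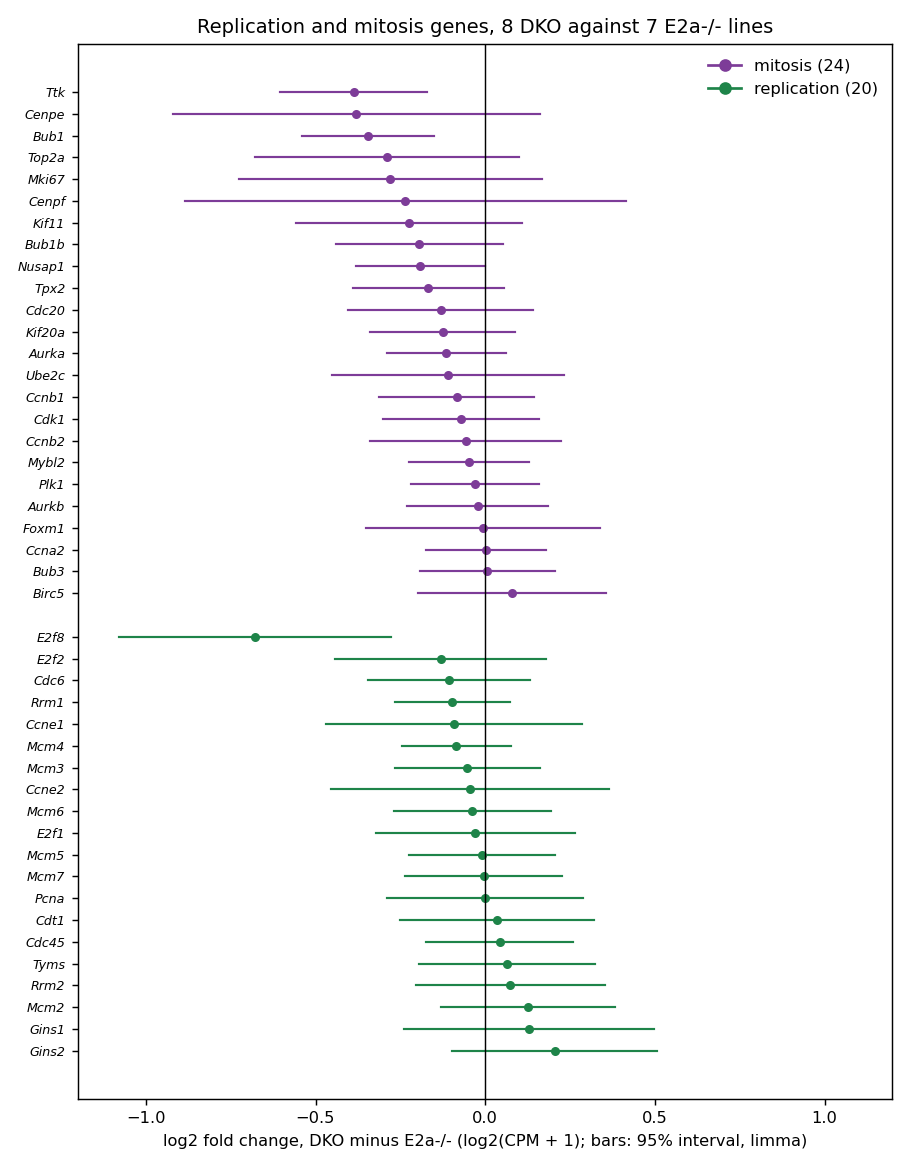
Log2 fold change (DKO minus E2a-/-, on the log2(CPM + 1) scale) of each of 24 mitosis (purple) and 20 replication (green) members, with 95% intervals from limma over 8 DKO and 7 E2a-/- lines. The intervals of E2f8, Ttk and Bub1 lie below 0, none lies above it, and the long bars belong to Cenpf and Cenpe.

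The fold changes leaned downward in the mitosis set. Of 24 mitosis members, 21 (87.5%) had a lower mean in DKO, with a median log2 fold change of -0.12, and of 20 replication members 12 (60.0%) did, with a median of -0.02, where 53.7% of all genes were lower with a median of -0.02. After median-of-ratios scaling the lower counts were 20 of 24 and 10 of 20, with 50.4% of all genes. Most of these differences are small against the spread between lines, and the members share their libraries, so the counts describe these 15 lines.

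*E2f8* encodes an atypical E2F that represses E2F target genes late in S phase. It was at 51.3 CPM (DKOTu3), a median of 69.5 and 113 CPM (DKO241) in the DKO lines, and at 62.3 (SKO132), a median of 129.1 and 131.9 CPM in the *E2a-/-* lines. All 8 DKO lines lay below the *E2a-/-* median, and SKO132 and, by a narrow margin, SKO156.6 lay inside the DKO range. The log2 fold change was -0.68 (SE 0.19, adjusted p = 0.193 from limma over all genes, exact permutation p = 0.00824). Permutation p values of members, here and below, are not adjusted, and the members were picked by the same fold changes. SKO132, the line with little *Lef1*, was the low one: without it the log2 fold change was -0.82 with a limma adjusted p of 0.03, still above 0.01. Leaving out any other single line gave a limma adjusted p of 0.11 (without DKO241) to 0.354 (without SKO186.5).

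*Ttk* and *Bub1* encode kinases of the spindle assembly checkpoint, which delays anaphase until every chromosome is attached. *Ttk* was at 36.9 CPM (DKO170.2), a median of 42.8 and 50.0 CPM (DKO192.3) in DKO lines, and at 43.2 (SKO156.6), a median of 58.4 and 73.6 CPM (SKO95) in *E2a-/-* lines. *Bub1* was at 105 (DKO79.9), a median of 134 and 155 CPM (DKO241) in DKO lines, and at 139 (SKO156.6), a median of 167 and 181 CPM (SKO132) in *E2a-/-* lines. For both genes 6 of 7 *E2a-/-* lines were above every DKO line and SKO156.6 fell inside the DKO range. The log2 fold change of *Ttk* was -0.39 (SE 0.10, limma adjusted p = 0.155, exact permutation p = 0.00155). That of *Bub1* was -0.35 (SE 0.09, limma adjusted p = 0.155, exact permutation p = 0.0014). DESeq2 gave adjusted p values of 0.0179 for *Ttk*, 0.0201 for *Bub1* and 0.038 for *E2f8*, past 0.05 but not 0.01, as 2.92% of all genes were past 0.05 in DESeq2. *Bub1b* and *Bub3*, which act in the same checkpoint, had log2 fold changes of -0.19 and 0.01 and adjusted p values of 0.585 and 0.99 in limma.

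*Cenpe*, a kinetochore motor, and *Top2a*, the topoisomerase that untangles sister chromatids, were the other members among the 5 with the most negative fold changes. *Cenpe* was at 60.1 (DKO170.2), a median of 179 and 226 CPM in DKO lines and at 121 (SKO156.6), a median of 221 and 261 CPM in *E2a-/-* lines. *Top2a* was at 618 (DKO170.2), a median of 1138 and 1504 CPM in DKO lines and at 966 (SKO156.6), a median of 1266 and 1744 CPM in *E2a-/-* lines. Their groups overlapped widely, with log2 fold changes of -0.38 (limma adjusted p = 0.634) and -0.29 (limma adjusted p = 0.611). The exact permutation p was 0.189 for *Cenpe* and 0.153 for *Top2a*. Both rest in part on DKO170.2, without which the values were -0.19 and -0.17. *Top2a* also moved to -0.22 without SKO115.2 and without SKO163.5.

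The 5 most positive fold changes were smaller. *Gins2*, a GINS subunit, was at 62.3, a median of 71.3 and 114.6 CPM (DKO170.2) in DKO lines and at 49.2, a median of 62.0 and 87.8 CPM (SKO132) in *E2a-/-* lines. The log2 fold change of *Gins2* was 0.21 (SE 0.14, limma adjusted p = 0.646, exact permutation p = 0.183), and 0.12 without DKO170.2. *Gins1* followed at 0.13, the helicase subunit *Mcm2* at 0.13, *Birc5* (survivin, of the chromosomal passenger complex) at 0.08 and *Rrm2* at 0.07. Their limma adjusted p values were 0.746 to 0.879 and their exact permutation p values 0.316 (*Mcm2*) to 0.585 (*Rrm2*). *Pcna* had a fold change of 0.00 on the log2 scale with an interval of -0.29 to 0.29.

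The other replication members lay between -0.13 (*E2f2*) and 0.06 (*Tyms*) on the log2 fold change scale, with limma adjusted p values of 0.70 or more. The 6 subunits of the MCM helicase ranged from -0.08 (*Mcm4*) to 0.13 (*Mcm2*), the loaders *Cdc6* and *Cdt1* were at -0.11 and 0.03, and the cyclin E genes *Ccne1* and *Ccne2* at -0.09 and -0.04. The subunits of one complex thus stayed within a narrow band of fold changes in both directions.

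The other mitosis members lay between -0.28 (*Mki67*) and 0.01 (*Bub3*), the lowest limma adjusted p being 0.4935 for the spindle protein gene *Nusap1* at -0.19. *Cdk1* and *Ccnb1*, the kinase and cyclin that drive entry into mitosis, had log2 fold changes of -0.07 and -0.08. For *Ccnb1* the DKO lines were at 142 to 232 CPM and the *E2a-/-* lines at 165 to 191 CPM, so that 5 of 8 DKO lines lay below every *E2a-/-* line while DKOTu3 and DKO102.4 lay above all of them. The Aurora kinase genes *Aurka* and *Aurkb* had -0.11 and -0.02 and the polo-like kinase gene *Plk1* -0.03. *Cdc20* and *Ube2c*, which act with the anaphase-promoting complex, had -0.13 and -0.11. The activators of the mitotic wave, *Foxm1* and *Mybl2*, had -0.01 and -0.05, with intervals of -0.35 to 0.34 and -0.22 to 0.13.

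Summed over roles, each line has a replication mean and a mitosis mean of log2(CPM + 1), which are given without a test because the lists were made with earlier results known. For replication the DKO lines averaged 7.84 ± 0.12 (SD, n = 8). The *E2a-/-* lines averaged 7.88 ± 0.12 (SD, n = 7), with DKO minus *E2a-/-* at -0.03. For mitosis the DKO lines averaged 7.60 ± 0.12 (SD, n = 8) and the others 7.74 ± 0.09 (SD, n = 7), with DKO minus *E2a-/-* at -0.14. The first difference is less than the SD within either genotype, and the second is larger than both SDs while the ranges overlap. The highest line by both means was SKO137.1, at 8.06 and 7.85. DKO170.2 stood 2nd of 15 by replication at 8.01 and 15th by mitosis at 7.35, so that its mitosis mean was 0.66 below its replication mean, where the other DKO lines were 0.03 to 0.28 below. Without the 5 members of longest transcript the mitosis difference between genotypes was -0.11 and DKO170.2 was 13th of 15. In bulk RNA a smaller share of cells in a phase and less RNA per cell in that phase cannot be told apart.

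**Figure D2:**
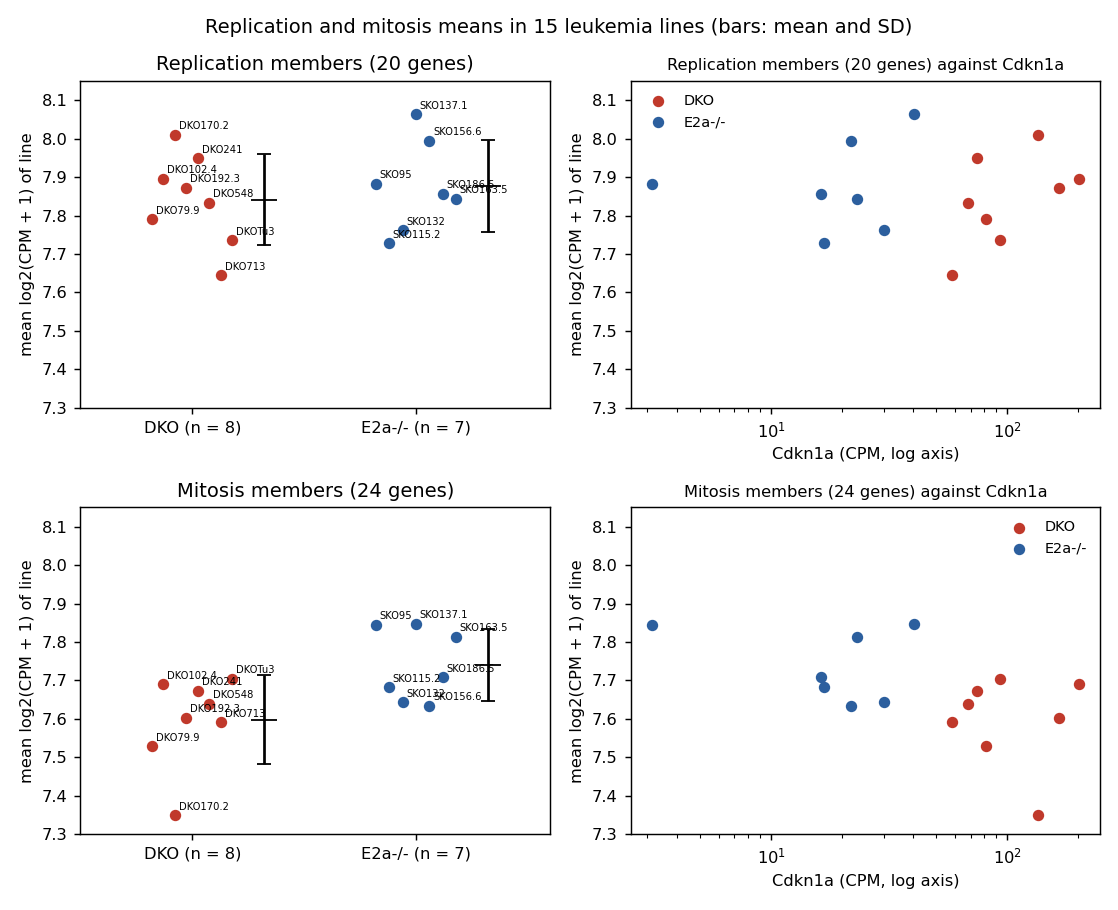
Mean log2(CPM + 1) of the 20 replication members (upper row) and the 24 mitosis members (lower row) in each line, by genotype on the left with the mean and SD as bars, and against the line's Cdkn1a level (CPM, log axis) on the right; DKO red, E2a-/- blue. The genotypes overlap in both means, DKO170.2 is lowest by mitosis at 7.35, and Cdkn1a separates the genotypes.

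Other genes of the same pathways were read beside the share of all genes, 10.2% at an unadjusted p below 0.05 and 53.7% lower in DKO. Of 44 further replication genes (origin recognition, polymerases, clamp loader, nucleotide supply) none was called and 2 (4.55%) had an unadjusted p below 0.05, *Rfc3* at a log2 fold change of 0.41 and *Wdhd1* at -0.36, with 24 of 44 (54.5%) lower in DKO. Of 50 further mitosis genes none was called and 7 (14%) had an unadjusted p below 0.05, with 37 of 50 (74%) lower; the kinetochore-microtubule gene *Dlgap5* had -0.59 (limma adjusted p = 0.157) and *Ect2*, which activates RHOA in cytokinesis, -0.66 (limma adjusted p = 0.346). Of 15 RB and DREAM complex genes none was called and 3 (20%) had an unadjusted p below 0.05, *E2f4* and *E2f7* higher in DKO and *Rbl2* lower at -0.36. *E2f4*, an E2F of the repressor complexes, averaged 215 ± 22.4 CPM (SD) over the 8 DKO lines against 172 ± 20.5 CPM (SD) over the 7 *E2a-/-* lines, for a log2 fold change of 0.32 (limma adjusted p = 0.181). *E2f7*, the other atypical E2F beside *E2f8*, ranged from 0.824 to 103 CPM (DKOTu3) in DKO lines with a median of 13.2, and from 0.622 to 21.2 CPM in *E2a-/-* lines with a median of 2.28 (limma adjusted p = 0.413). DKOTu3 was thus the highest line for *E2f7* and the lowest for *E2f8*.

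The second comparison set the members against *Cdkn1a*, which blocks cyclin-CDK activity. *Cdkn1a* was at 58.5 (DKO713), a median of 87.1 and 201 CPM (DKO102.4) in DKO lines and at 3.13 (SKO95), a median of 21.7 and 40.4 CPM (SKO137.1) in *E2a-/-* lines. This is a difference of 2.41 on the log2 scale (limma adjusted p = 0.0257, which is above 0.01). The 2 ranges did not overlap, so a slope was fitted with genotype as a term. None of the 44 members was called for its slope on *Cdkn1a*, as none of 12544 genes was (background 0%); 1 member, *E2f2*, had an unadjusted p below 0.05 where 5.3% of genes did. The quasi-likelihood test of edgeR on the slope called 0 members (0% of genes) and likewise gave 1 at an unadjusted p of 0.05, beside 4.6% of genes. Slopes were negative for 19 members and positive for 25, with a median of 0.02 on the log2 scale per doubling of *Cdkn1a* + 1. Over all genes 5842 slopes were negative and 6702 positive, with a median of 0.01, so the members were near that share. By role, 7 replication members were negative and 13 positive, and 12 mitosis members were negative and 12 positive. Of the 50 further mitosis genes, 37 had a negative slope, with a median of -0.05. No member was called for a difference of slope between genotypes (background 0%), and 1, *Ube2c*, had an unadjusted p below 0.05 where 2.48% of genes did. These counts depend on SKO95, the line with the least *Cdkn1a*: without it 5 members had an unadjusted p below 0.05 for the slope (3.2% of all genes), namely *Nusap1*, *Mcm5*, *Cdt1*, *Rrm2* and *Ube2c* with slopes of 0.17 to 0.33 and a limma adjusted p of 0.928 each. Without SKO95 the median slope of the members was 0.10 (0.02 for all genes). In the separate fit for the difference of slope between genotypes, leaving out SKO95 moved the median difference of the members from 0.05 to -0.07.

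The steepest slopes had wide errors. *E2f2*, an activator E2F, had 0.20 per doubling (SE 0.08, limma adjusted p = 0.887), *Ccne2* had 0.16 (SE 0.12) and *Rrm2* had 0.13 (SE 0.08). On the other side *Cenpf* had -0.28 (SE 0.18), *Cenpe* -0.18 (SE 0.16) and *Top2a* -0.15 (SE 0.11), each with a limma adjusted p of 0.952. Without SKO95, *Cenpf*, *Cenpe*, *Top2a* and *Rrm2* had -0.49, -0.34, -0.28 and 0.30. Within the DKO lines alone *Cenpf* had -0.64 and within the *E2a-/-* lines -0.13, and the test of the difference between these slopes gave an unadjusted p of 0.209 in limma.

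For the set means the relation to *Cdkn1a* was described within genotypes. In 8 DKO lines the replication mean had a Pearson r of 0.54 and a Spearman rho of 0.50 with log2 *Cdkn1a*, and the mitosis mean -0.10 and 0.17. Without DKO102.4 and DKO192.3, the 2 lines farthest from the median *Cdkn1a*, r was 0.66 and -0.65, so the value for mitosis depends on which lines are kept. In 7 *E2a-/-* lines r was 0.20 for replication and -0.28 for mitosis, and without SKO95 and SKO137.1 it was -0.01 and -0.14. The 2 *E2a-/-* lines at the ends of the *Cdkn1a* range, SKO95 at 3.13 and SKO137.1 at 40.4 CPM, were the 2 highest by mitosis mean, at 7.85 each. Of the other CDK inhibitors, *Cdkn2a* (p16 and p19ARF) was at 125 CPM in SKO132 and at 7.77 CPM or less in the other 14 lines.

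Across lines the members spanned little. The median SD within genotypes was 0.23 on the log2 scale, beside 0.37 for all genes and 0.28 for the 4773 genes with a mean of 50 CPM or more. The tightest were the helicase subunit *Mcm4* (SD 0.13 over 15 lines, 461 to 651 CPM), *Rrm1*, the large subunit of ribonucleotide reductase (SD 0.14, 599 to 837 CPM), and cyclin A2, *Ccna2* (SD 0.14, 263 to 401 CPM). The widest were *Cenpf* (SD 0.62), *Cenpe* (0.54), *E2f8* (0.51), the proliferation marker *Mki67* (0.44) and *Top2a* (0.38). Except for *E2f8*, these are the members with the longest transcripts.

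**Figure D3:**
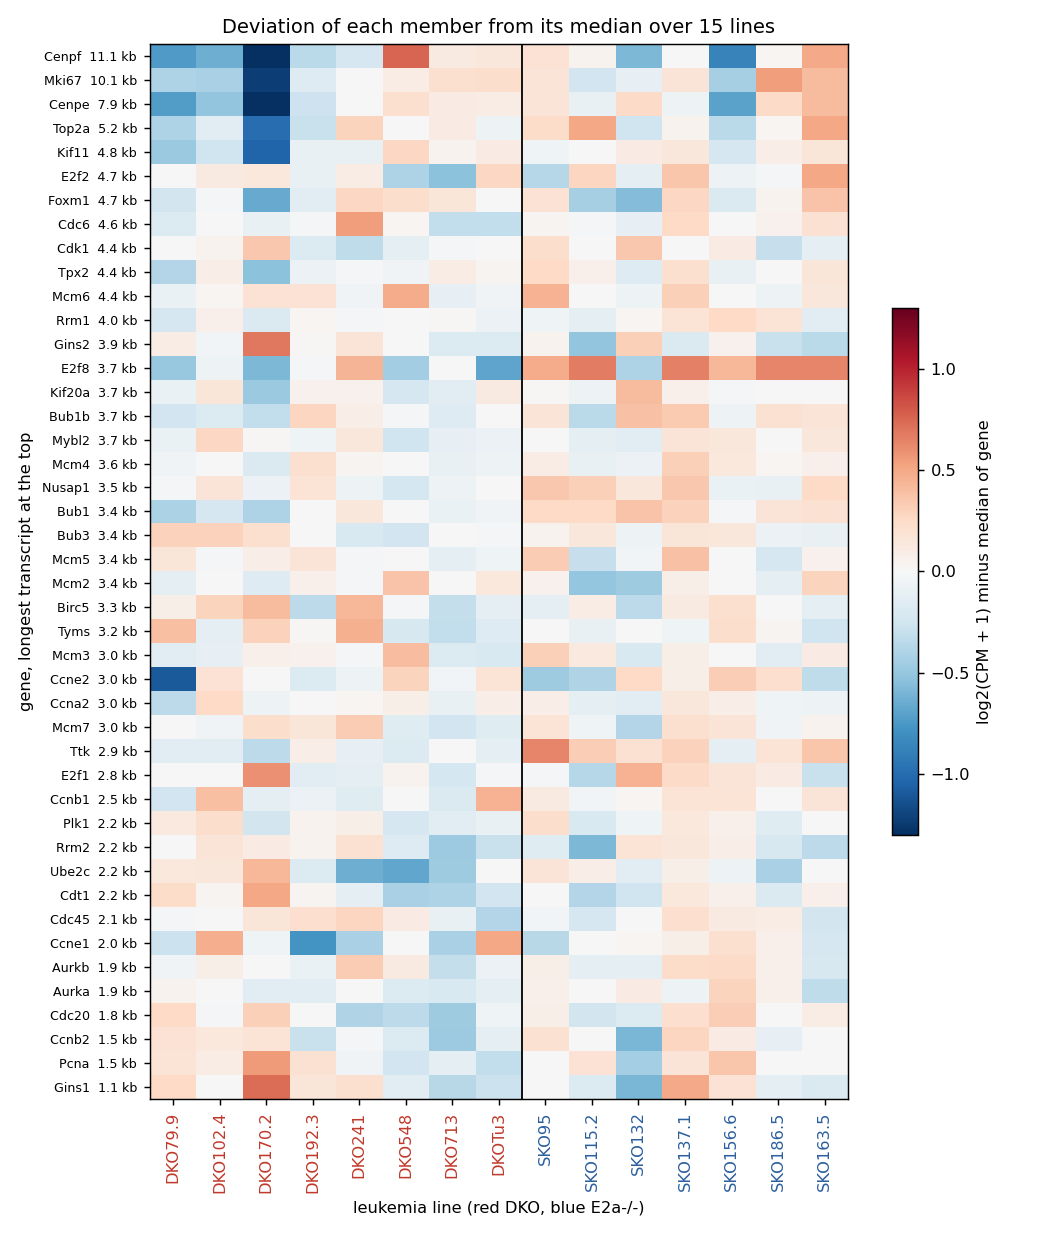
Deviation of each of 44 members from its own median over 15 lines, in log2(CPM + 1), red above and blue below, with the length of the longest transcript in kb beside each name and the longest at the top. The upper 5 rows are deep blue in DKO170.2 and paler blue in DKO79.9, DKO102.4 and SKO156.6, and E2f8 is red in 6 of 7 E2a-/- columns and blue in SKO132.

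The 5 longest members, all mitotic, moved together from line to line. *Cenpf*, *Mki67*, *Cenpe*, *Top2a* and *Kif11* have transcripts of 4819 to 11130 bases, and their 10 pairs had a median r of 0.88 over 15 lines, where pairs within the mitosis set had 0.17, pairs within the replication set 0.19 and pairs across the sets 0.11. *Mki67* was at 424 CPM in DKO170.2, at 735 in SKO156.6, at 743 in DKO102.4 and at 755 in DKO79.9, and at 837 to 1448 CPM in the other 11 lines. *Kif11*, the motor that separates spindle poles, was at 165 CPM in DKO170.2, 243 in DKO79.9, 284 in DKO102.4 and 292 in SKO156.6, and at 318 to 411 CPM elsewhere. *Cenpf* was at 60.8 CPM in DKO170.2 and at 353 CPM in DKO548, a 5.81-fold range, the widest of the set. The next 5 by length, at 4365 to 4739 bases, had mixed relations to the length trend described next: r was 0.70 for *Tpx2*, 0.60 for *Foxm1*, 0.05 for *Cdc6*, -0.20 for *E2f2* and -0.47 for *Cdk1*.

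The same 4 lines had less of long transcripts in general. Over 9437 listed genes outside the replication and mitosis lists, the trend of the level with transcript length ran from -0.47 per doubling (log2) in DKO170.2 through -0.16 in DKO79.9, -0.15 in SKO156.6 and -0.13 in DKO102.4 to 0.14 in DKO713. In DKO170.2 the 5 longest members had a median deviation of -1.23 and the 5 shortest (*Gins1*, *Pcna*, *Ccnb2*, *Cdc20* and *Aurka*) one of 0.31. The match was not complete. DKO192.3 and SKO132 had median deviations of -0.27 and -0.11 for the 5 longest members, at length trends of 0.01 and 0.08. Over the 15 lines *Cenpe* had an r of 0.97 with this trend, *Kif11* 0.93 and *Mki67* 0.93, while *Pcna* had -0.82, *Gins1* -0.77 and *Cdt1* -0.76; 10 members (22.7%) had an r above 0.5 and 11 (25%) one below -0.5, beside 21.4% and 18.7% of 9663 other genes with a mean of 5 CPM or more. *Bub1* had 0.64, *Ttk* 0.48 and *E2f8* 0.25. With each line's length trend removed, the mitosis mean differed by -0.13 between genotypes and no member was called. Trends with GC content, fitted without length, were 0.33 per 10 points (log2) in DKO170.2, 0.27 in DKO79.9 and -0.23 in DKO548. Fitted together with length, the GC trends of these lines were 0.16, 0.22 and -0.22. With the length and GC trends both removed, the mitosis difference was -0.12 and no member was called.

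SKO156.6 and SKO186.5 were alike across genes (Spearman rho 0.987) and still parted here. *Mki67* was at 735 and 1448 CPM, *Cenpf* at 114 and 213, *Cenpe* at 121 and 232, and *Top2a* at 966 and 1248 CPM. *Pcna* went the other way, at 872 and 680 CPM. How the libraries were made beyond a standard Illumina protocol is not given in the sources used here, and the part of the length trend in these levels was not tested.

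**Figure D4:**
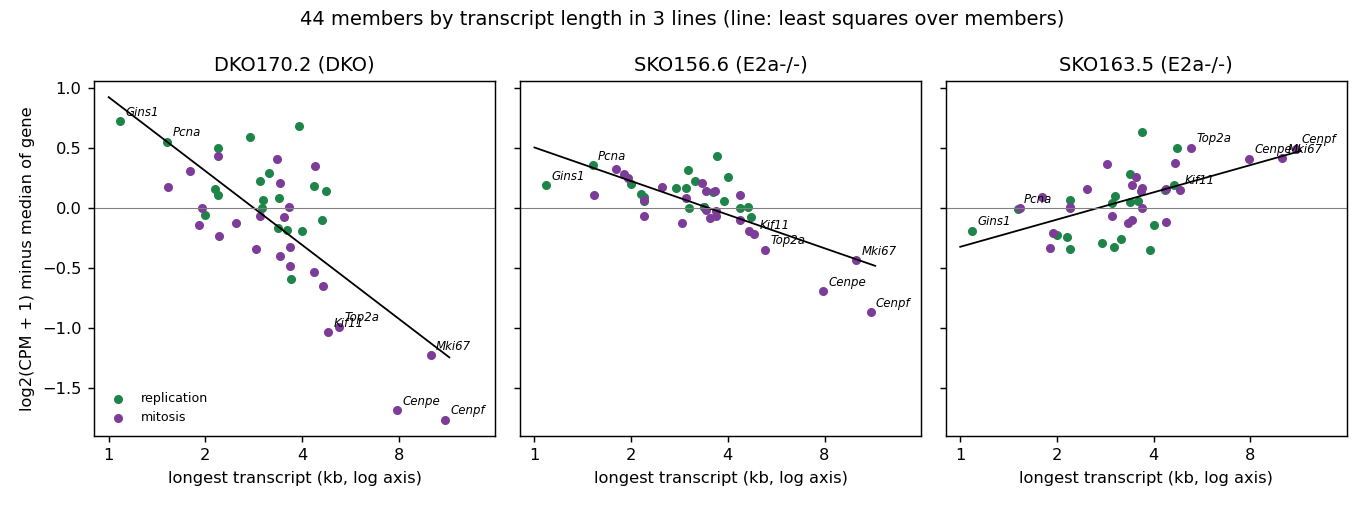
Deviation of the 44 members from their medians (log2(CPM + 1)) against longest transcript length (kb, log axis) in DKO170.2, SKO156.6 and SKO163.5, replication green and mitosis purple, with a least-squares line over the members. The line falls steeply in DKO170.2, falls in SKO156.6 and rises in SKO163.5, and Cenpf and Cenpe lie lowest in DKO170.2.

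Some members were highest in a line where their chromosome was shifted, and others were not. Of 8 pairs of a line and a chromosome with members and a shift over 0.1, 5 had a member highest in that line. DKO548 was the highest of 15 lines for all 3 members on chromosome 1, *Mcm3*, *Mcm6* and *Cenpf*, and for 2 of the 41 members elsewhere. *Mcm3* was at 884 CPM there and at 582 to 828 CPM in the other 14 lines, and *Mcm6* at 1152 and 767 to 1131 CPM. The 552 listed genes of chromosome 1 were shifted by 0.26 (log2 median) in DKO548, and 28.8% of them were highest in this line, against 5.64% of genes on other chromosomes.

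DKO241 was the highest line for 5 of 6 members on chromosomes 5 and 11 and for 2 of 38 elsewhere. The 5 were *Mcm7*, *Tyms* (thymidylate synthase), *Cdc6*, *Aurkb* (the passenger complex kinase) and *Birc5*; *Top2a*, the sixth, was at 1504 CPM and highest in SKO163.5. *Cdc6* was at 252 CPM in DKO241 and at 138 to 206 CPM elsewhere. Genes of chromosome 5 were shifted by 0.41 and those of chromosome 11 by 0.47 in DKO241, and 45.9% and 48.1% of them were highest there, against 6.84% and 5.64% of the remaining genes. On chromosome 6, shifted by 0.31 in SKO163.5 and by 0.23 in DKO548, *Foxm1* was highest in SKO163.5 at 237 CPM, and *Mcm2* was highest in DKO548 at 861 CPM and next in SKO163.5 at 810 CPM. DKOTu3 had a shift of 0.16 on chromosome 6 with neither member highest. Of the listed genes on chromosome 6, 26.2% were highest in SKO163.5, 22.0% in DKO548 and 3.96% in DKOTu3. On chromosome 7, shifted by 0.16 in DKO79.9 and by 0.11 in DKO170.2, none of the 6 members was highest in either line. Of the listed genes on chromosome 7, 14.6% were highest in DKO79.9 and 24.3% in DKO170.2. With shares this low, 6 members are too few for the count to set them apart from the other genes there. The mean deviations of the 6 members were -0.16 in DKO79.9 and -0.35 in DKO170.2. Chromosome number was not measured in these libraries.

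**Figure D5:**
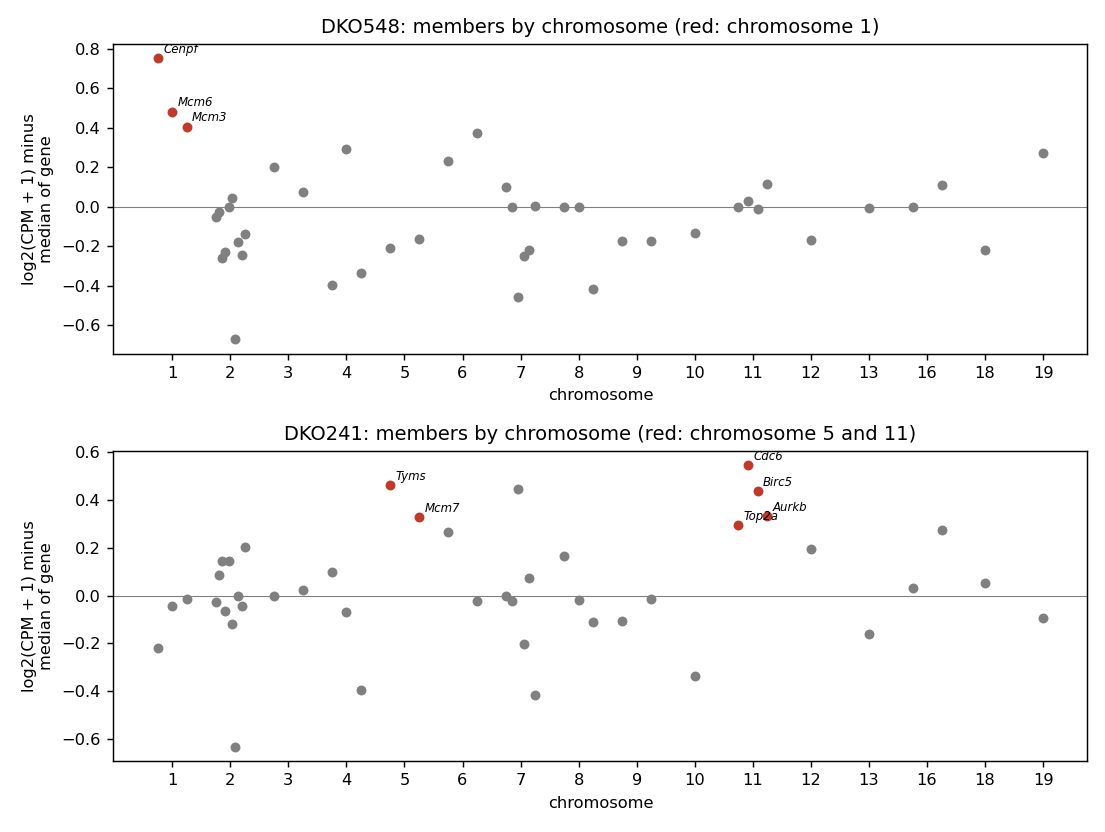
Deviation of each member from its median (log2(CPM + 1)) by chromosome in DKO548 (upper) and DKO241 (lower), with chromosome 1 and chromosomes 5 and 11 in red. The red points are above 0 in both panels, and the grey points scatter on both sides.

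The genes outside the 44 members most like each set mean were read over 9663 genes with a mean of 5 CPM or more and 15 lines. The replication mean was followed most closely by *Rfc4*, a clamp loader subunit among the further replication genes, at r = 0.83, then by *Med26* (0.78), *Ehd4* (0.77), *Mnd1* (0.77) and *Dnaaf2* (0.76). The mitosis mean was followed by *Fkbp15* (0.91), the condensin subunit *Ncapg* (0.89), the centromere protein *Cenpc1* (0.87), *Ect2* (0.87) and *Mon1b* (0.87), of which *Ncapg* and *Ect2* are among the further mitosis genes. All genes of a line share its depth and length trend, which differ between lines, so these values are descriptions.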

How the data were processed

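RNA-seq of 15 lines was used (8 DKO, 7 *E2a-/-*). Per the labels and the study's methods the authors trimmed reads with Trimmomatic 0.33, aligned them with TopHat2 2.1.0 to mm10, counted genes with HTSeq 0.6.1 and normalised with edgeR; the deposited values are CPM, 1 column per line. The positions listed in the table are not those of GRCm38 and were not printed; promoter coordinates are from RefSeq (GRCm38.p6). Each line's lowest CPM value above 0 was taken as 1 read, which gave the depth. Every CPM value was then a whole number of reads, within 0.01 at low counts. The tolerance grew with the count, so the highest counts could not fail this check. The members and lists were chosen with earlier results of these data known. Values were tested as log2(CPM + 1) with limma 3.58.1 (R 4.3.3, variance trend, all 15 lines, Benjamini-Hochberg over all genes, adjusted p under 0.01), and fold changes on this scale are smaller for low genes. edgeR 4.0.16 and DESeq2 1.42.0 were run on the recovered reads. Scripts were tested on simulated data. Exact permutation tests were two-sided over 6435 splits. Their p values were not adjusted, and the members tested were those with the 5 largest fold changes each way. Members named in full were those with the 5 largest fold changes each way, the 5 largest and 3 smallest SDs, the 3 highest and lowest levels per kb and the 3 steepest slopes each way; others were named for a length, chromosome or line pattern after their values were seen. Nothing states that lines came from separate mice, so p values measure the spread between these lines. Alternatives covered pseudocount, scaling, filter, variance trend, weights, test, each line left out, and, chosen after seeing the data, length and GC trends, 2 lines and the 5 longest members.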

Additional observations from a re-analysis of the deposited data

Results flagged for a closer look

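Of 98 groups of lines examined (each member and mean within each genotype), 9 held a line whose gap to the next was large for the range by Dixon's criterion, where chance gives about 1 in 20, or 4.9. In DKO548, *Mcm3* was at 883.8 CPM (other DKO lines 584 to 700) and *Mcm6* at 1152.2 CPM (767 to 939). In DKO170.2, *Gins2* was at 114.56 CPM (62.3 to 79.6), *E2f1* at 118.77 CPM (66.8 to 81.0), and the mitosis mean minus the replication mean was -0.66 (-0.28 to -0.03). *Cdc6* was at 251.94 CPM in DKO241 (138 to 176). Cyclin E2, *Ccne2*, was at 36.06 CPM in DKO79.9 (68.8 to 95.4), the library with the fewest reads. In SKO132, the *E2a-/-* line with little *Lef1*, *E2f8* was at 62.3 CPM (112 to 132) and *Kif20a*, a kinesin of cytokinesis, at 233.8 CPM (168 to 184).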

How the results depend on the processing

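Under every alternative run, 0 of 44 members were called between the genotypes, for the slope on *Cdkn1a* or for its difference between genotypes. The lowest adjusted p among the members ranged from 0.0179 (DESeq2) to 0.279 (without DKO102.4) between genotypes, and 1 to 5 members had an unadjusted p below 0.05. For the slope on *Cdkn1a* this count was 0 to 5, with 5 only without SKO95 and 4 without the genotype term. The replication difference ranged from -0.06 to 0.03, positive with the median over members, and the mitosis difference from -0.16 to -0.09, smallest without DKO170.2 and DKO79.9, where *Cenpe* and *Top2a* had -0.09 and -0.12. Leaving out 1 line at a time gave -0.06 to -0.0031 and -0.16 to -0.11. Small increases changed sign: *Gins1* was -0.078 with array weights and -0.013 without DKO170.2 and DKO79.9, *Birc5* was -0.039 with array weights, and *Rrm2* was -0.0023 without SKO115.2, in a leave-one-out range up to 0.13; the cause was not tested. *E2f8* ranged from -0.82 to -0.58, *Ttk* from -0.45 to -0.33 and *Bub1* from -0.39 to -0.25. No paired analysis was possible because line numbers are not shared between the genotypes.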
